A study of Mus musculus with 8 samples.

Results

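The genes described here encode 9 receptors listed together under the heading of neuropeptide receptors. Brs3 is a bombesin-family receptor, and Gpr151 is an orphan receptor, so that its ligand is not established. The others are the neuropeptide Y receptors Npy1r, Npy2r and Npy5r, and the somatostatin receptors Sstr1, Sstr2, Sstr3 and Sstr4. All 9 were among the 15705 genes listed, and all 9 passed the filter on low values. Brs3 and Gpr151 were chosen by their falls in the comparison described below, so their differences are given as a description without a test. The receptors of the other families were set beside them by name, in a list drawn up with results of these data known.

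RNA came from the lateral ganglionic eminence (LGE), the ventral forebrain structure that produces the striatal projection neurons, of mouse embryos at E18.5. There were 4 control libraries of the genotype Isl1 flx/flx, with no Cre, and 4 libraries of the genotype Dlx1-Cre; Isl1 flx/flx, called the conditional knockout (cKO). Isl1 encodes a LIM-homeodomain transcription factor, and in the cKO its floxed alleles meet a recombinase driven from Dlx1, a gene of ventral forebrain progenitors and their neurons. Each eminence was dissected from 1 embryo genotyped from its tail. Both groups carried the floxed alleles, Cre was present in the cKO alone, and the effect of Cre itself and that of the deletion cannot be told apart.

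All 9 proteins are G protein-coupled receptors. The neuropeptide Y and somatostatin receptors act mainly through inhibitory G proteins of the Gi and Go class, which lower cyclic AMP and open inwardly rectifying potassium channels, and both peptides are made in the striatum by a class of interneurons. Brs3 resembles the receptors for gastrin-releasing peptide and neuromedin B, couples to Gq, has no established natural ligand with high affinity, and is known for its part in energy balance. Gpr151 is best known from neurons of the habenula.

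Each gene has an adjusted read value in each library, which is not a read count, and the depth behind it is unknown. Their sums per library lay between 23732455 and 24456923, which follows from the scaling. Isl1 itself was higher in the cKO (3517 to 4186 in the controls and 4930 to 5971 in the cKO, a log2 fold change of 0.53 ± 0.06 with limma adjusted p = 0.000338). This whole-gene value does not check the genotype labels, and every direction below rests on them. The 10 markers of LGE neurons listed for a check of the tissue were all above 0 in all 8 libraries, with a summed level of 3991 to 4175 in the controls, after each library sum had been scaled to 1000000, and 4182 to 4488 in the cKO. Of these, 4 rose (Dlx5, Dlx6, Meis2 and Adora2a) and 1, Ppp1r1b, fell by 0.74 ± 0.11 on the log2 scale. Over all 15698 tested genes, 2.87% rose and 3.78% fell (limma adjusted p under 0.05), the shares to set beside each marker count here. Pallial neuron markers, of cells outside the LGE, were lowest in control replicate 3 and cKO replicate 4. Microglia markers were higher in every cKO library (139 to 172 against 92.6 to 103.5), and 9 of 10 rose. Markers of cholinergic neurons were lower (7.27 to 15.1 against 20.3 to 33.1), with 5 of 6 fallen and Chat, their defining enzyme, at 0 in cKO replicate 1. Of the 8 markers of direct pathway neurons 5 fell and 1, Isl1 itself, rose (593 to 649 against 763 to 881). The part of these other cells in the receptor results was not tested. In cKO replicate 3 the adjusted value of Xist, RNA of the inactive X chromosome, was 40998, and that of the Y-linked gene Ddx3y was 519. Each library is labelled as from 1 embryo. The part of the adjustment in these values was not tested. The 4 receptors with groups that did not overlap were also fitted without cKO replicate 3. Their log2 fold changes were then -3.73 (Brs3), -2.81 (Gpr151), -1.84 (Npy1r) and -1.24 (Npy5r). In dissected tissue, fewer cells of a type and less RNA per cell cannot be told apart.

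Sequence before the start of these genes is shown for Brs3, whose values differed most between the groups, for Npy5r, which was also lower, and for Npy2r, whose groups overlapped. LIM-homeodomain factors, Isl1 among them, bind sites with a TAAT core, and these letters are in capitals on either strand, including where they form the palindrome TAATTA. The motif was chosen after the Brs3 letters had been seen. The sequences are RefSeq's, of build GRCm38.p6, read in the direction of the gene, and end where the gene model begins.
Brs3 (chrX:57042824-57043073, plus strand): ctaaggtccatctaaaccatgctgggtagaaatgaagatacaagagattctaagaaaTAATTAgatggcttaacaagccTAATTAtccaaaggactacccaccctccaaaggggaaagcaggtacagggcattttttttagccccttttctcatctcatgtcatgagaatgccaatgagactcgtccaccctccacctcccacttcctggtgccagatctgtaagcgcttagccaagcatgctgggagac
Npy5r (chr8:66688129-66688344, minus strand): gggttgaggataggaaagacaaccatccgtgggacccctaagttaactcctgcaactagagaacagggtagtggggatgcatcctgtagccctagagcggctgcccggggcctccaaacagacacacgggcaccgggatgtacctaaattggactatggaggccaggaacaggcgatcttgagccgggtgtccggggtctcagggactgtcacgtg
Npy2r (chr3:82548086-82548335, minus strand): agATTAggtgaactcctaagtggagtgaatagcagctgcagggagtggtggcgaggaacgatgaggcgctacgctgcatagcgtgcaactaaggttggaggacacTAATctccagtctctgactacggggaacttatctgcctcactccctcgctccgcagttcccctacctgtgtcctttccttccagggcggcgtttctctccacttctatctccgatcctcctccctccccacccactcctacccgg

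The Brs3 window of 250 bases held 2 copies of TAATTA, starting 193 and 171 bases before the start site. Of 32851 windows of the same length in the table, 4.84% held at least 1 copy and 0.444% at least 2. Each copy holds TAAT once on each strand, which gives Brs3 4 matches to TAAT, a number that 9.62% of windows reached. The Npy2r window held 2 matches to TAAT (30.8% of windows held at least 2) and no TAATTA. The windows of Npy1r, Npy5r, Sstr2, Sstr3 and Sstr4 held neither, and 54.9% of all windows held at least 1 TAAT. Those of Npy1r, Npy5r and Sstr4 overlapped the gene model in part, most of the Npy1r window (66697172 to 66697421) lying inside it. Sstr3 had 2 windows (78544346 to 78544595 and 78541407 to 78541656), both inside its gene model. For Npy1r and Sstr3 the windows thus say little or nothing about the sequence before the gene model. A window was found for 7 of the 9 genes. These matches describe letters, not binding.

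Brs3 had the lowest cKO level relative to the controls among the 9 receptors. Its gene lies on chromosome X (57043074 to 57048758, plus strand, GRCm38), with no annotated gene overlapping it. The control libraries held Brs3 values of 170, 178, 181 and 174, and the cKO libraries held 12, 12, 13 and 13. Every cKO library was thus far below every control library, and within each group the libraries were close together. The means were 176 ± 4.79 and 12.5 ± 0.577 (SD, n = 4), a 14.1-fold lower level in the cKO and a log2 fold change of -3.71 ± 0.12 (SE). The deposited values lack a direction of variation within the groups, so that spreads are too small. The neighbouring tested genes Map7d3 and Htatsf1 had log2 fold changes of -0.11 ± 0.27 and 0.03 ± 0.06 and did not pass the test (limma adjusted p = 0.883 and 0.871). Because Brs3 is X-linked and the labels give no sex, its values were also read against Xist and Ddx3y. Xist was at 30711 or more in control replicates 2 and 4, where Ddx3y was 0 and 1, and in cKO replicate 3, where Ddx3y was 519. In the other 5 libraries Xist was at 45 or less and Ddx3y between 617 and 2219. Brs3 in the 3 libraries with Xist was 178, 174 and 13, within the range of the other libraries of each group or next to it.

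Gpr151, on the minus strand of chromosome 18, was lower as well. Its control values were 29, 51, 54 and 44, and its cKO values were 5, 5, 5 and 6. The groups did not overlap, although control replicate 1 was well below the other 3 controls. The mean went from 44.5 ± 11.1 to 5.25 ± 0.50 (SD, n = 4), 8.48-fold lower, with a log2 fold change of -2.83 ± 0.24 (SE). The cKO values of Gpr151 and Brs3 are small whole numbers after rounding, which limits the precision of both folds. Of 5 habenula markers, 4 were measured, and their summed level was 2.75 to 6.39 in the controls and 2.52 to 4.54 in the cKO. None of these 4 passed the test in limma (1 at an unadjusted p under 0.05) or in the authors' deposited table. That 1, Pou4f1, a defining habenular transcription factor, had values of 2 to 4 in the controls and 3 to 7 in the cKO. The part of habenula cells in the Gpr151 values was not tested.

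**Figure D1:**
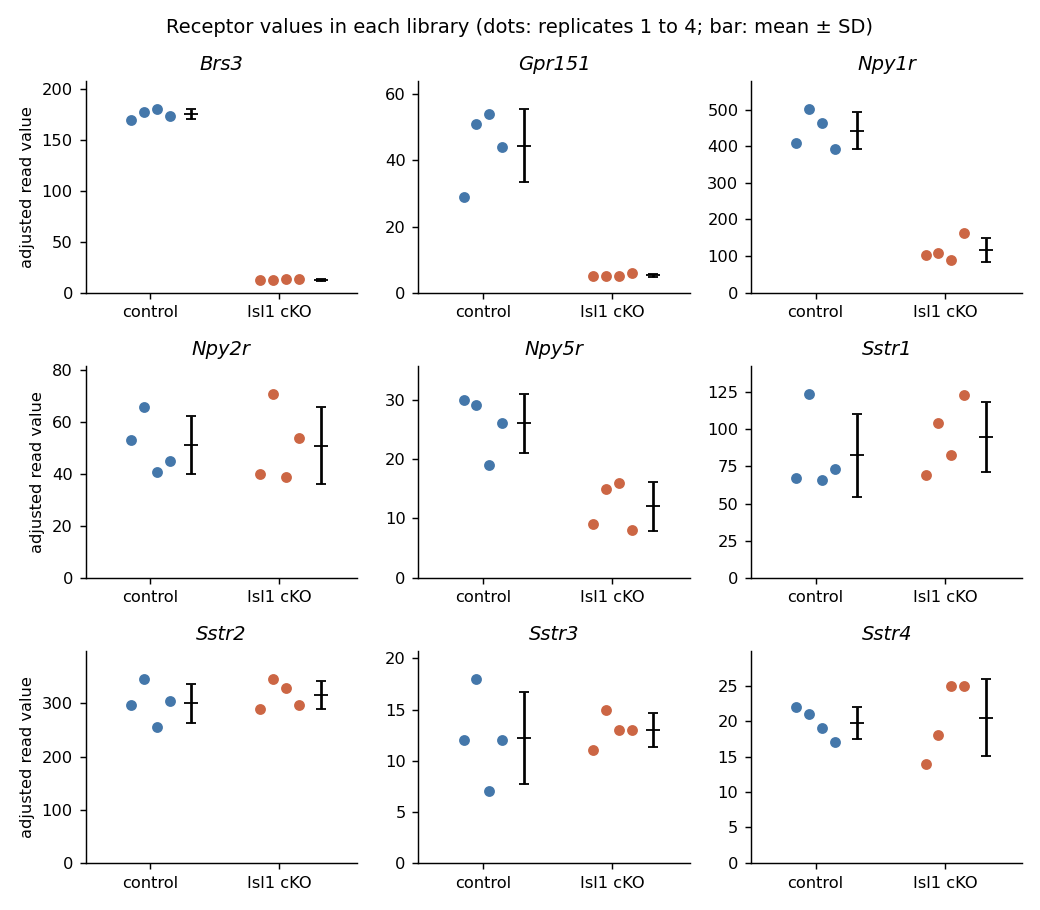
Adjusted read values of the 9 receptor genes in each of the 8 libraries, on linear axes from 0 that differ between panels. Dots are replicates 1 to 4 from left to right, and the bar beside them is the mean ± SD (n = 4). The groups are apart for Brs3, Gpr151, Npy1r and Npy5r and overlap for the other 5 genes.

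Among the neuropeptide Y receptors, Y1 and Y5 fell and Y2 had almost the same mean in both groups. Of the 7 neuropeptide Y and somatostatin receptors, 2 fell, none rose and 5 did not pass. Over all 15698 tested genes 6.66% passed (limma, Benjamini-Hochberg adjusted p under 0.05), 3.78% as falls and 2.87% as rises. The same 2 receptors had groups that did not overlap, which was so for 12.7% of all tested genes. As the list was drawn up with results known, nothing is read from these counts.

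Npy1r encodes the Y1 receptor, a main receptor of neuropeptide Y in the forebrain. Its values were 409, 503, 464 and 394 in the controls and 103, 108, 90 and 163 in the cKO. All cKO libraries were below all controls, and cKO replicate 4 was the highest of its group. The mean dropped from 442.5 ± 50.3 to 116 ± 32.2 (SD, n = 4), 3.82-fold, with a log2 fold change of -1.95 ± 0.16 (SE; limma adjusted p = 1.76e-05).

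Npy5r, the Y5 receptor gene, known with Y1 for the feeding effects of the peptide, had lower values throughout. They were 30, 29, 19 and 26 in the controls and 9, 15, 16 and 8 in the cKO. The lowest control, replicate 3, was just above the highest cKO library. The means were 26 ± 4.97 and 12 ± 4.08 (SD, n = 4), and the log2 difference was -1.09 ± 0.27 (SE; limma adjusted p = 0.031). The call depended on single libraries: leaving out control replicate 1, 2 or 4, or cKO replicate 1 or 4, raised the limma adjusted p to between 0.0735 and 0.0963, with log2 fold changes of -1.08 to -0.93. Adding the missing variation to the model as a term (adjusted p = 0.0634) or leaving out both libraries low in pallial markers (adjusted p = 0.0632) ended the call too, at log2 fold changes of -1.09 and -1.07.

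Npy1r and Npy5r are neighbours on chromosome 8 and are read in opposite directions. Npy5r (66679965 to 66688128, minus strand, GRCm38) and Npy1r (66697192 to 66706792, plus strand) begin 9064 bases apart, and the gene models do not overlap. Beyond this pair, the nearest tested genes did not pass, at log2 fold changes of 0.08 ± 0.09 for Tma16 (limma adjusted p = 0.706) and -0.14 ± 0.07 for Naf1 (adjusted p = 0.273).

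Npy2r, which encodes the Y2 receptor, often found presynaptically on neurons that release the peptide, lies on chromosome 3 (82538383 to 82548084, minus strand). Its values were 53, 66, 41 and 45 in the controls and 40, 71, 39 and 54 in the cKO, and the groups overlapped over most of their ranges. The means were 51.2 ± 11.0 and 51 ± 14.99 (SD, n = 4). Its log2 fold change was -0.03 ± 0.22 (SE, limma adjusted p = 0.971), with a 95% confidence interval from -0.50 to 0.45. The estimate for Npy5r, -1.09, lies outside it, but the interval of Npy5r itself reaches -0.50. Spreads are too small here, so these intervals are too narrow. Map9, next to Npy2r, rose by 0.14 ± 0.04 on the log2 scale (limma adjusted p = 0.0462). The difference between Npy2r and the other receptors was not tested.

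The precursor of the ligand also fell. Npy values were 905, 847, 675 and 700 in the controls and 377, 460, 498 and 576 in the cKO. No cKO library reached the lowest control. Npy had a log2 fold change of -0.71 ± 0.13 (SE; limma adjusted p = 0.00495). Of the 11 interneuron markers from the medial ganglionic eminence, the source of the cells that make Npy and Sst, 3 fell (Npy, Nos1 and Cxcr4) and 1 (Maf) rose, 36.4% against 6.66% of all tested genes. Their summed level was 527 to 568.5 in the controls and 484 to 541.5 in the cKO, with no marker at 0 in any library, and Npy and Sst are in this list.

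None of the 4 somatostatin receptors passed the test, and their groups overlapped. At an unadjusted p under 0.05 none passed in limma either, and none passed in the authors' deposited table. Sstr2, the most abundant of them, lies on chromosome 11 (113619342 to 113626028, plus strand). Its values were 296, 345, 256 and 304 in the controls and 290, 346, 329 and 297 in the cKO. The log2 fold change was 0.08 ± 0.10 (SE; limma adjusted p = 0.745), with a 95% confidence interval from -0.13 to 0.29. The gene overlaps Slc39a11 on the opposite strand, and no source used here says if strand was used in counting, so that Sstr2 values are uncertain.

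Sstr1 (chromosome 12, 58211772 to 58214444, plus strand) had control values of 67, 124, 66 and 73 and cKO values of 69, 104, 83 and 123. A single control, replicate 2, was as high as the highest cKO library, and the other 3 controls lay at the low end. The log2 fold change was 0.22 ± 0.22 (SE; limma adjusted p = 0.678, 95% confidence interval -0.28 to 0.71).

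Sstr4 (chromosome 2, 148395344 to 148396767, plus strand) had values of 22, 21, 19 and 17 in the controls and 14, 18, 25 and 25 in the cKO. The cKO libraries spread on both sides of the controls. This gave a log2 fold change of 0.02 ± 0.23 (SE; limma adjusted p = 0.978, 95% confidence interval -0.48 to 0.52).

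Sstr3 (chromosome 15, 78537008 to 78544685, minus strand), a receptor known from neuronal primary cilia, had the lowest control mean of the 9 receptors. Its values were 12, 18, 7 and 12 in the controls and 11, 15, 13 and 13 in the cKO. The log2 fold change was 0.14 ± 0.28 (SE; limma adjusted p = 0.854, 95% confidence interval -0.48 to 0.75). A change as large as that of Npy1r lies outside the intervals of all 4 somatostatin receptors, which are too narrow because spreads are too small.

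Sstr5, the remaining member of this family and not in the list, had values of 28, 51, 46 and 36 in the controls and 26, 41, 24 and 32 in the cKO. Its log2 fold change of -0.37 ± 0.23 did not pass (limma adjusted p = 0.436). Of the ligands, Sst had 784, 970, 629 and 696 in the controls and 404, 558, 538 and 636 in the cKO. One cKO library, replicate 4, was above the lowest control. The log2 fold change of -0.53 ± 0.15 did not pass (limma adjusted p = 0.056), and it passed in 7 of 18 alternatives, with the smallest adjusted p at 0.0208. Cort, the precursor of the related peptide cortistatin, was at 0.21 ± 0.20 (adjusted p = 0.636).

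No further receptor related to these families passed the test. Of 9 related receptors that were not in the list, 5 were measured (Sstr5, Grpr, Nmbr, Galr1 and Npbwr1), and none passed in limma or in the authors' deposited table, nor at an unadjusted limma p under 0.05. Their median log2 fold change was -0.19, against 0.01 over all tested genes. Grpr, the gastrin-releasing peptide receptor gene, had 20, 19, 15 and 20 in the controls and 17, 20, 34 and 14 in the cKO. Nmbr, the neuromedin B receptor gene, had 11, 10, 4 and 7 against 7, 7, 3 and 10. Both overlapped between the groups, and their log2 fold changes were 0.12 ± 0.26 for Grpr and -0.23 ± 0.39 for Nmbr. Galr1, a galanin receptor gene, was at 0.00 ± 0.25 and Npbwr1, a receptor gene for neuropeptides B and W, at -0.19 ± 0.24.

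Of the 9 ligand genes 7 were measured, and Npy alone passed the test, 14.3% against 6.66% of all tested genes. Grp was low, at 1 to 6 in the controls and 1 to 5 in the cKO, and Nmb lay between 47 and 61 in the controls and 54 and 82 in the cKO (0.26 ± 0.16, limma adjusted p = 0.456). Gal, the galanin precursor, had a log2 fold change of -0.23 ± 0.37. Spx, which encodes spexin, a peptide that acts on galanin receptors, had 49, 40, 34 and 49 in the controls and 30, 24, 32 and 21 in the cKO. Its groups did not overlap, and its log2 fold change of -0.67 ± 0.19 missed the threshold (limma adjusted p = 0.0651). It passed in the authors' deposited table (adjusted p = 0.0181) and without control replicate 3 (limma adjusted p = 0.0498).

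**Figure D2:**
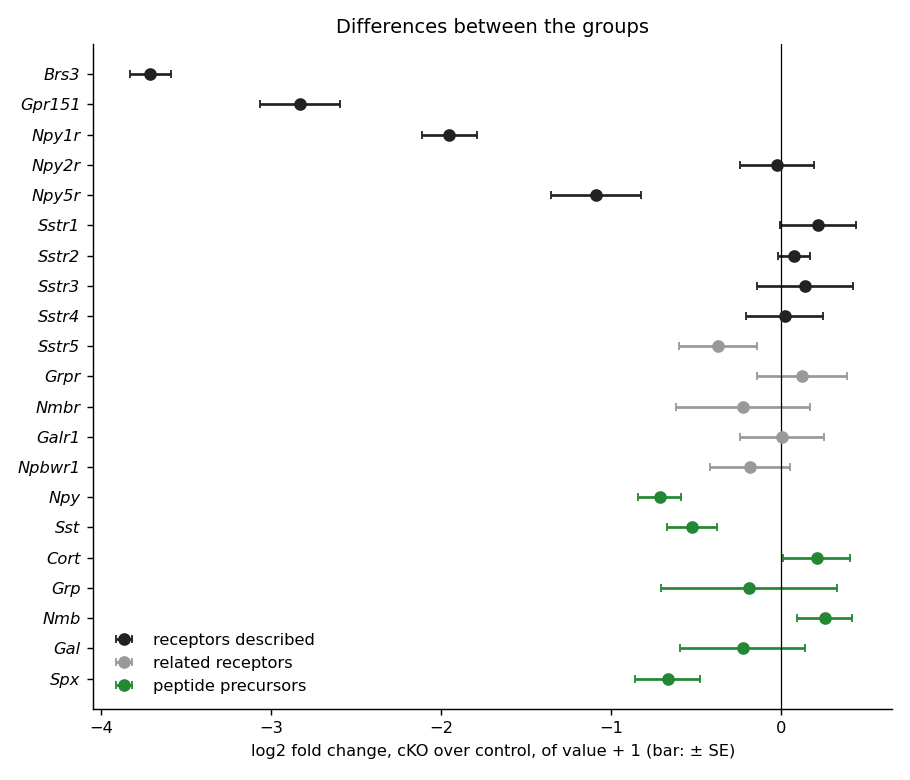
Log2 fold change of cKO over control, on the scale of value + 1, for the 9 receptors described (black), 5 related receptors (grey) and 7 peptide precursors (green), with bars of ± SE from limma. Brs3 is at -3.71, Gpr151 at -2.83, Npy1r at -1.95 and Npy5r at -1.09, and the somatostatin receptors lie around 0.

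Falls of receptor genes were also found among the other neuropeptide receptors. Of 46 genes in this list 36 were measured, of which 6 fell, 1 rose and 29 did not pass, a share of 19.4% against 6.66% of all tested genes. Without control replicate 2, and in the authors' deposited table, 7 fell and 3 rose. The median log2 fold change of the list was -0.07. Some of these genes were known from earlier results when the list was written.

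Oxtr, the oxytocin receptor gene, had 49, 42, 47 and 38 in the controls and 8, 9, 17 and 14 in the cKO, with a log2 fold change of -1.84 ± 0.24 (SE; limma adjusted p = 0.000652). Rxfp3, the relaxin-3 receptor gene, fell by 1.82 ± 0.24 on the log2 scale, from a mean of 44.5 ± 6.46 to 12.2 ± 3.86 (SD, n = 4). Tacr1, the substance P receptor gene, had means of 222 ± 26.9 and 77.8 ± 4.35 with a log2 difference of -1.50 ± 0.10. These genes had cKO values below every control, and so did the remaining fallers. Of the 36 genes, 7 were lower and 2 higher without overlap, and not all of these passed the test. Over all tested genes, 12.7% had groups that did not overlap.

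The mu opioid receptor gene Oprm1 fell by 1.04 ± 0.19, Trhr, the receptor gene for thyrotropin-releasing hormone, by 0.98 ± 0.15, and Calcrl, the receptor subunit for CGRP and adrenomedullin, by 0.84 ± 0.18 on the log2 scale. The largest limma adjusted p of the 6 fallers was 0.0164, for Calcrl. The Calcrl call was lost without control replicate 3 (limma adjusted p = 0.0553) and without both libraries low in pallial markers (0.104), at log2 fold changes of -0.77 and -0.79. Calcrl is also a gene of blood vessels. None of 6 vascular markers passed in limma (1 at an unadjusted p under 0.05) or in the authors' deposited table. Their summed level was 256 to 264 in the controls and 256 to 308 in the cKO. The part of vessel cells in the Calcrl values was not tested. Mrgpre, an orphan receptor gene related to sensory neuron receptors, was the riser, at 0.51 ± 0.10 (adjusted p = 0.00754).

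The 3 most abundant receptors of this list that did not pass were Adcyap1r1, the PACAP receptor gene (0.07 ± 0.05), the nociceptin receptor gene Oprl1 (0.04 ± 0.04) and Prokr2, a prokineticin receptor gene (-0.21 ± 0.06, limma adjusted p = 0.0664). Prokr2 passed in 3 of 18 alternatives, with the smallest adjusted p at 0.0227 in limma. Adcyap1r1 had a mean of 4381 ± 125 in the controls and 4607 ± 299.5 in the cKO (SD, n = 4).

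**Figure D3:**
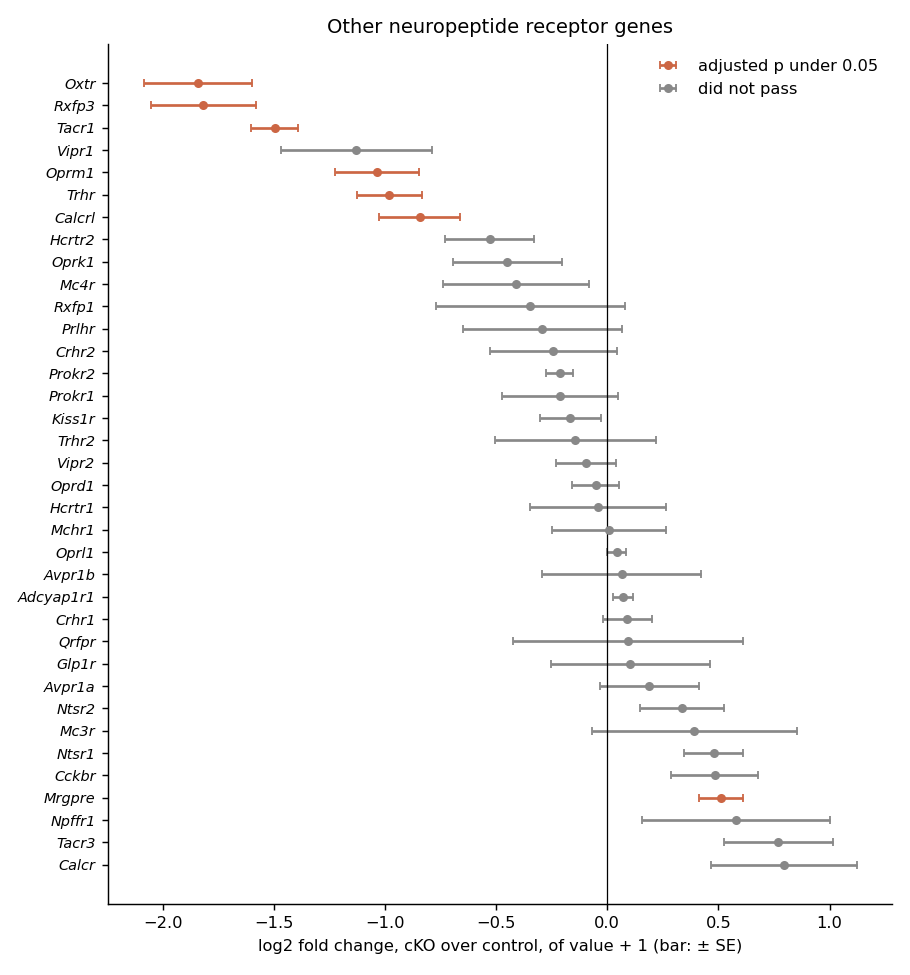
Log2 fold change of cKO over control for the 36 other neuropeptide receptor genes measured, with bars of ± SE from limma, ordered by size. Orange marks the 7 genes past the adjusted threshold of 0.05, from Oxtr at -1.84 to Mrgpre at 0.51.

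Of 14 genes through which these receptors signal, 2 rose and none fell, 14.3% against 6.66% of all tested genes. Gnai1, which encodes an inhibitory G protein alpha subunit, had 1907, 2072, 1859 and 2034 in the controls and 2782, 2810, 2701 and 2588 in the cKO (0.47 ± 0.04, limma adjusted p = 6e-05). Kcnj5, a subunit of the potassium channels that these G proteins open, had 16, 15, 17 and 16 against 83, 71, 82 and 88, a 5.06-fold higher mean. Both genes were apart between the groups, which was so for 12.7% of all tested genes. The most abundant of the others, Gnao1, Gnai2 and Gnaq, had log2 fold changes of 0.01 ± 0.03, 0.04 ± 0.04 and 0.06 ± 0.04 and did not pass.

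Levels can be compared between genes only per gene length, as RPKM (reads per kilobase of gene and per 1000000 reads). In the controls the order of mean RPKM was Sstr2 (7.54 ± 0.902), Npy1r (6.09 ± 0.625), Brs3 (2.63 ± 0.04), Gpr151 (1.13 ± 0.27), Sstr1 (0.882 ± 0.289), Npy2r (0.632 ± 0.134), Sstr4 (0.59 ± 0.0688), Npy5r (0.466 ± 0.0919) and Sstr3 (0.129 ± 0.0468), each with the SD over 4 libraries. Neighbours in this order were apart in all libraries between Npy1r and Brs3, Brs3 and Gpr151, and Npy5r and Sstr3, and overlapped in range elsewhere. The median over all listed genes was 7.85 RPKM, and all 9 receptors lay below it, with Sstr2 at percentile 49.0 of the listed genes, Npy1r at 44.1, Brs3 at 30.9 and Sstr3 at 6.004.

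In the cKO Sstr2 kept the highest mean RPKM (7.89 ± 0.681), Npy1r was next at 1.59 ± 0.432, and its range overlapped that of Sstr1 (1.01 ± 0.248). Brs3 was at 0.186 ± 0.00808 and Gpr151 at 0.132 ± 0.0119, the range of Gpr151 overlapping that of Sstr3 (0.136 ± 0.0172).

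**Figure D4:**
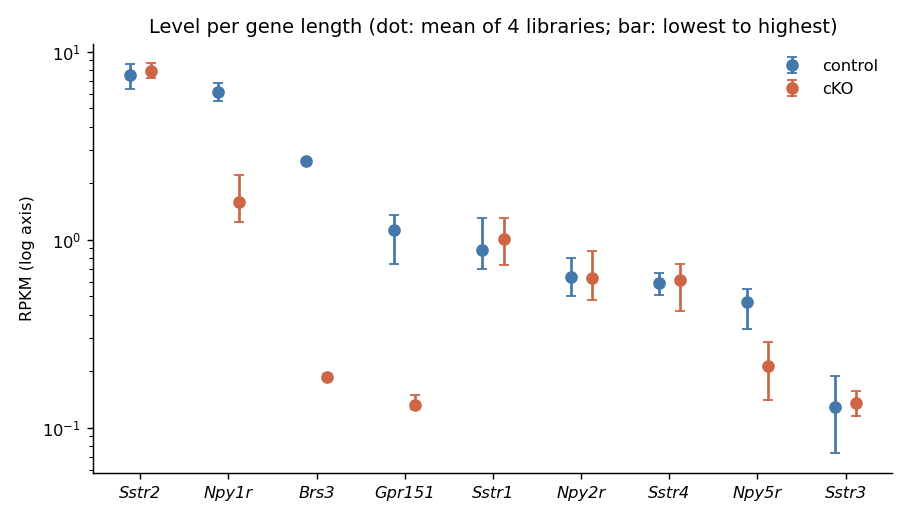
Level of the 9 receptor genes in RPKM, on a log axis, ordered by the control mean. Dots are means of 4 libraries and bars run from the lowest to the highest library. Sstr2 is highest in both groups (7.54 and 7.89 RPKM), and Brs3 goes from the third place to the seventh.

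The genes with patterns most like each receptor over the 8 libraries were taken by Pearson's r of log2(value + 1) among 12765 genes. For Brs3 they were Cntn3 (r = 0.998), Stra6 (0.997) and Ikzf1 (0.997), and for Gpr151 they were Rprm (0.996), Stra6 (0.995) and Frmd6 (0.99). For Npy1r they were Gda (0.995), Ramp1 (0.988) and Nrip1 (0.985). All these genes fell in the cKO, so that r is set largely by the difference between the groups, and the 8 points share the scaling and the adjustment. Npy5r was most like Trhr (0.991), Appl2 (0.991) and Lcmt1 (0.989), of which Trhr fell and the other two did not pass.

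For the receptors whose groups overlapped, r follows the variation within groups. Npy2r was most like Snhg10 (r = 0.968), Pcbd2 (0.968) and Rragc (0.965), and Sstr1 like Maoa (0.979), Pih1d2 (0.977) and Esam (0.975). Sstr2 was most like B4gat1 (0.981), Pias3 (0.975) and Ube2j2 (0.968). Sstr3 was most like Pias3 (0.972), Usp16 (0.965) and Tmem145 (0.953), and Sstr4 like Eef1akmt1 (0.966), Rab9 (0.966) and Cxx1a (0.958). None of these genes passed the test between the groups. They are the highest of 12765 genes over only 8 libraries. Whether r of this size exceeds that of the best match among unrelated genes was not tested, so no shared pattern is read from it.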

How the data were processed

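Poly(A) RNA of 8 libraries was sequenced, and the labels gave groups and replicate numbers. Nothing in them names litter or sex, and p-values measure the spread between these samples. STAR, featureCounts and edgeR on mm10 were used, per the submitters' processing notes, but no version or counting option is known. The authors' whole-number columns hold a score, not counts: upper quartiles were 1624 to 1635 in every library, and in the log values of 5711 genes a direction of variation within the groups was almost absent (singular value 0.000241, the next 0.0433), so spreads are too small to a degree. Depth is unknown and no counting interval can be given. The deposited RPKM are these values per library sum and per gene length. The authors' deposited log2 fold changes and p-values served as an alternative; their sign is cKO over control.

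Values were compared as log2(value + 1) with limma 3.58.1 (mean trend) in R 4.3.3, for the 15698 genes with at least 1 in 4 or more libraries, at a Benjamini-Hochberg adjusted p under 0.05. Such fold changes understate changes of low genes. The method was tested on simulated data with noise drawn separately for each gene and library. The missing direction of variation was not part of the simulation, which therefore cannot show how it affects the p-values. The members and lists were chosen with earlier results of these data known. Named genes were the 9 receptors, measured related receptors and ligands, those of the other lists past the threshold plus the 3 most abundant others, the 3 genes most like each receptor (gene models without a proper symbol left out), and Isl1. Pou4f1, Chat, Pomc, Xist, Ddx3y, the genes next to a receptor and those of the striatal and interneuron marker lists were named outside this rule. Of 8 hypothalamic markers 1, Pomc, was measured and did not pass. Of 7 indirect pathway markers 2 rose in limma, 28.6% against 2.87% of all tested genes, and 1 passed in the authors' deposited table. Gene positions are those of GENCODE M21 on GRCm38. Alternatives were other pseudocounts (0.5 and 5), filters, scalings, a replicate block, the missing direction in the model, the authors' table, and left-out libraries; those for Pearson's r were chosen after seeing the data.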

Additional observations from a re-analysis of the deposited data

Results flagged for a closer look

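In 4 of 74 groups of 4 libraries examined, 1 library stood apart from the other 3 by more than Dixon's 95% limit, where chance flags about 1 group in 20. Gpr151 was 6 in cKO replicate 4 and 5 in the other 3, which is the rounding step of the file. Sstr1 was 124 in control replicate 2, against 66 to 73 in the other controls. Trhr was 412 in control replicate 3, the lowest control. Gnao1 was 17814 in control replicate 2. Without control replicate 2, the log2 fold change of Sstr1 was 0.427 and did not pass limma.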

How the results depend on the processing

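Npy1r kept its direction and its call in all 18 alternatives, with log2 fold changes of -2.13 to -1.84. Brs3 ranged from -3.79 to -3.37 and Gpr151 from -3.08 to -2.24. Both were chosen by their falls in the same values, so their ranges are a description and no support. Npy5r lost its call in 7 of the 18. Over all genes, the main fit gave 1045 calls. Adding the missing variation to the model as a term gave 749 (459 fell, 290 rose). The calls numbered 608 without the libraries lowest in pallial markers and 1199 with the replicate block. With 1 library left out they numbered 658 to 959 (658 without control replicate 4). Same-numbered libraries did not all deviate together (r of 0.23, -0.0272, -0.109 and -0.534 for replicates 1 to 4). The largest r were between unlike numbers, 0.511 for control replicate 4 with cKO replicate 1 and 0.403 for control replicate 2 with cKO replicate 3. Whether any libraries shared a litter or a batch was not tested. The ligands past the threshold numbered 2 with median-of-ratios scaling, with library sum scaling, with the replicate block and without both libraries low in pallial markers, 3 in the authors' deposited table, and 1 to 3 with 1 library left out (3 without control replicate 3, 2 without cKO replicate 4). The other neuropeptide receptors past the threshold numbered 6 to 10. Sign changes were found for genes that did not pass. With 1 library left out, Npy2r ranged from -0.197 to 0.101, Sstr3 from -0.083 to 0.333, Sstr4 from -0.084 to 0.181, Grpr from -0.12 to 0.287, Nmbr from -0.483 to 0.062, Galr1 from -0.132 to 0.143, Grp from -0.603 to 0.156, Gal from -0.613 to 0.027 and Gnao1 from -0.007 to 0.023. Without the libraries lowest in pallial markers, Sstr1 was at -0.009, Sstr3 at -0.085 and Sstr4 at -0.099. Sstr4 was at -0.03 in the authors' deposited table, and Galr1 at -0.00022 with median-of-ratios and -0.003 with library sum scaling. The cause was not tested.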
